A study of Mus musculus with 6 samples.

Results

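The genes for the KMT2 family of histone methyltransferases and their COMPASS partners were followed in isolated pancreatic islets, the hormone-secreting cell clusters of the pancreas, of Paupar knockout and wild-type mice. Paupar is a long noncoding RNA gene that neighbours Pax6. The set was named gene by gene, to set the large catalytic genes beside the small core subunits, and holds 10 of the 53670 genes in the count table: the 6 catalytic genes Kmt2a, Kmt2b, Kmt2c, Kmt2d, Setd1a and Setd1b, the scaffold gene Men1, and the 3 core subunit genes Ash2l, Wdr5 and Rbbp5. It was chosen with the difference between the genotypes in these same libraries known, so every KO against WT value of the 10 genes is given as a description and supports nothing by itself. There were 3 libraries from Paupar -/- mice (KO) and 3 from Paupar +/+ mice (WT), all 6 weeks old, with no treatment named in the labels. The labels do not say how the allele was made, whether animals were pooled, or whether the libraries of a genotype came from separate animals. KO replicate 1 differed from KO replicates 2 and 3 in sex-linked transcripts and so did not come from the same animals, and for the other libraries the spread within a genotype may be technical.

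As background, KMT2 enzymes methylate lysine 4 of histone H3 (H3K4) through a SET domain, mono-methylation being typical of enhancers and tri-methylation of active promoters. Each enzyme is weakly active alone and works in a complex with WDR5, RBBP5, ASH2L and DPY30, which all the family's complexes share and which is named COMPASS after its yeast counterpart. KMT2A and KMT2B are found with menin, the product of Men1, a tumour suppressor gene whose loss gives rise to islet tumours in multiple endocrine neoplasia type 1. KMT2C and KMT2D act mainly at enhancers, and SETD1A and SETD1B lay down much of the tri-methyl mark at promoters.

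Library totals ran from 26915566 to 27285009 counts in KO and from 25733194 to 26969781 in WT. Paupar had 4, 0 and 4 counts in KO replicates 1 to 3, against 177, 252 and 111 in WT replicates 1 to 3. Xist, an RNA coating the inactive X, gave 0, 1120 and 862 counts in KO replicates 1 to 3 and 1 to 6 in WT. The Y-linked Ddx3y gave 1693, 2 and 0 counts in KO replicates 1 to 3 and 1316 to 1830 in WT. KO replicate 1 thus stood with the WT libraries in these sex-linked transcripts, and KO replicates 2 and 3 did not. Sex-linked transcripts therefore went partly with genotype. Apart from fits of KO replicate 1 alone and without it, their part in the KO against WT values was not tested. Islet hormone cell markers were all present: 7 beta cell genes took 25.0 to 25.3% of counts in KO and 19.5 to 22.6% in WT, and 5 alpha cell genes took 2.94 to 3.44% in KO and 3.55 to 4.37% in WT. Acinar genes, which encode digestive enzymes, took 1.15 to 3.06% in KO and 1.72 to 5.01% in WT, and 3 endothelial genes took 0.0197 to 0.0210% in KO and 0.0156 to 0.0184% in WT. No marker was at 0 in all libraries in any class. Schwann cell genes took 0.000235 to 0.000349% in KO and 0.000545 to 0.000645% in WT, and the epsilon cell gene 0.000238 to 0.000286% in KO and 0.000323 to 0.000653% in WT. The beta, alpha, epsilon, endothelial and Schwann cell shares moved with genotype without overlap, the other 7 classes overlapped, and their part in the results below was not tested. In bulk RNA, fewer cells of a type and less RNA per cell cannot be told apart.

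For the 6 catalytic genes and Men1 every KO library lay below every WT library, as it did for 12.1% of all tested genes, while the 3 core subunit genes overlapped. Levels are CPM, the library-scaled read count with TMM factors between libraries, and the members had 259 to 3665 counts per library. Kmt2a, the founder of the family and a target of leukaemia translocations (chromosome 9, 44611438 to 44689379 in mm9), had 58.9, 53.0 and 58.7 CPM in KO replicates 1 to 3, against 121, 136 and 102 CPM in WT replicates 1 to 3. The lowest WT library thus lay above the highest KO library by 35.7% of the WT mean. The means were 56.9 ± 3.34 CPM in KO and 119.7 ± 17.4 CPM in WT (SD, n = 3 each), a log2 fold change of -1.07 (SE 0.11). Kmt2b, its closest relative (chromosome 7, 31353877 to 31373745), had 46.2, 44.4 and 42.8 CPM in KO, against 71.8, 70.0 and 65.0 CPM in WT. Its log2 fold change was -0.63 (SE 0.07), and the groups were again apart.

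Kmt2d, which with Kmt2c encodes the enhancer-type enzymes (chromosome 15, 98662100 to 98701614), showed the largest log2 fold change of the 10 genes and the highest coefficient of variation in both genotypes, while Kmt2a differed more in CPM. It had 38.7, 30.9 and 32.8 CPM in KO, against 85.3, 87.1 and 60.0 CPM in WT, where replicate 3 lay well under the other two. Its log2 fold change was -1.18 (SE 0.16). Kmt2c (chromosome 5, 24777612 to 25004601) had 77.7, 75.8 and 81.7 CPM in KO, against 119.6, 112 and 103 CPM in WT. It was the most abundant member in KO by counts, with a log2 fold change of -0.51 (SE 0.08). KO libraries thus held 44.1% of the WT level of Kmt2d and 70.2% of that of Kmt2c.

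The SETD1 genes, which encode the enzymes closest to the yeast protein, differed less. Setd1b (chromosome 5, 123592202 to 123617444) had 45.3, 45.5 and 48.9 CPM in KO, against 58.8, 58.4 and 59.2 CPM in WT. Its log2 fold change was -0.34 (SE 0.06), and its WT libraries varied by a coefficient of variation of 0.602%. Setd1a (chromosome 7, 134920184 to 134943636) had 9.86, 11.2 and 11.4 CPM in KO, against 14.0, 13.6 and 12.7 CPM in WT. Its log2 fold change was -0.32 (SE 0.10). In the mm9 annotation 3523 bp of the exons of Setd1a are shared with Hsd3b7 on the same strand, so reads there may have been dropped or credited to either gene, and its level is uncertain.

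Men1 (chromosome 19, 6334979 to 6340891) encodes menin, the scaffold that joins KMT2A and KMT2B to chromatin partners. It had 45.9, 44.9 and 46.9 CPM in KO, against 49.0, 49.3 and 49.0 CPM in WT, with a log2 fold change of -0.10 (SE 0.06). The groups did not overlap, but the gap between them was only 4.31% of the WT mean, and the fold change lay within the range of the core genes.

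The 3 core subunit genes overlapped between the genotypes. Ash2l, whose protein with RBBP5 stimulates the SET domain (chromosome 8, 26926663 to 26958166), had 41.6, 40.2 and 43.9 CPM in KO, against 41.6, 40.5 and 45.0 CPM in WT. Wdr5, whose WD-repeat protein holds the enzyme to the complex (chromosome 2, 27370677 to 27392055), had 33.8, 30.4 and 28.6 CPM in KO, against 35.0, 29.0 and 35.7 CPM in WT. Rbbp5 (chromosome 1, 134373944 to 134402242) had 32.2, 32.3 and 31.0 CPM in KO, against 34.6, 30.8 and 30.7 CPM in WT. Their log2 fold changes were -0.02 (SE 0.07), -0.10 (SE 0.11) and -0.01 (SE 0.08) in that order, each within 1 SE of 0. The plot of values by library shows the separation of the 6 catalytic genes and the overlap of the core genes.

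**Figure D1:**
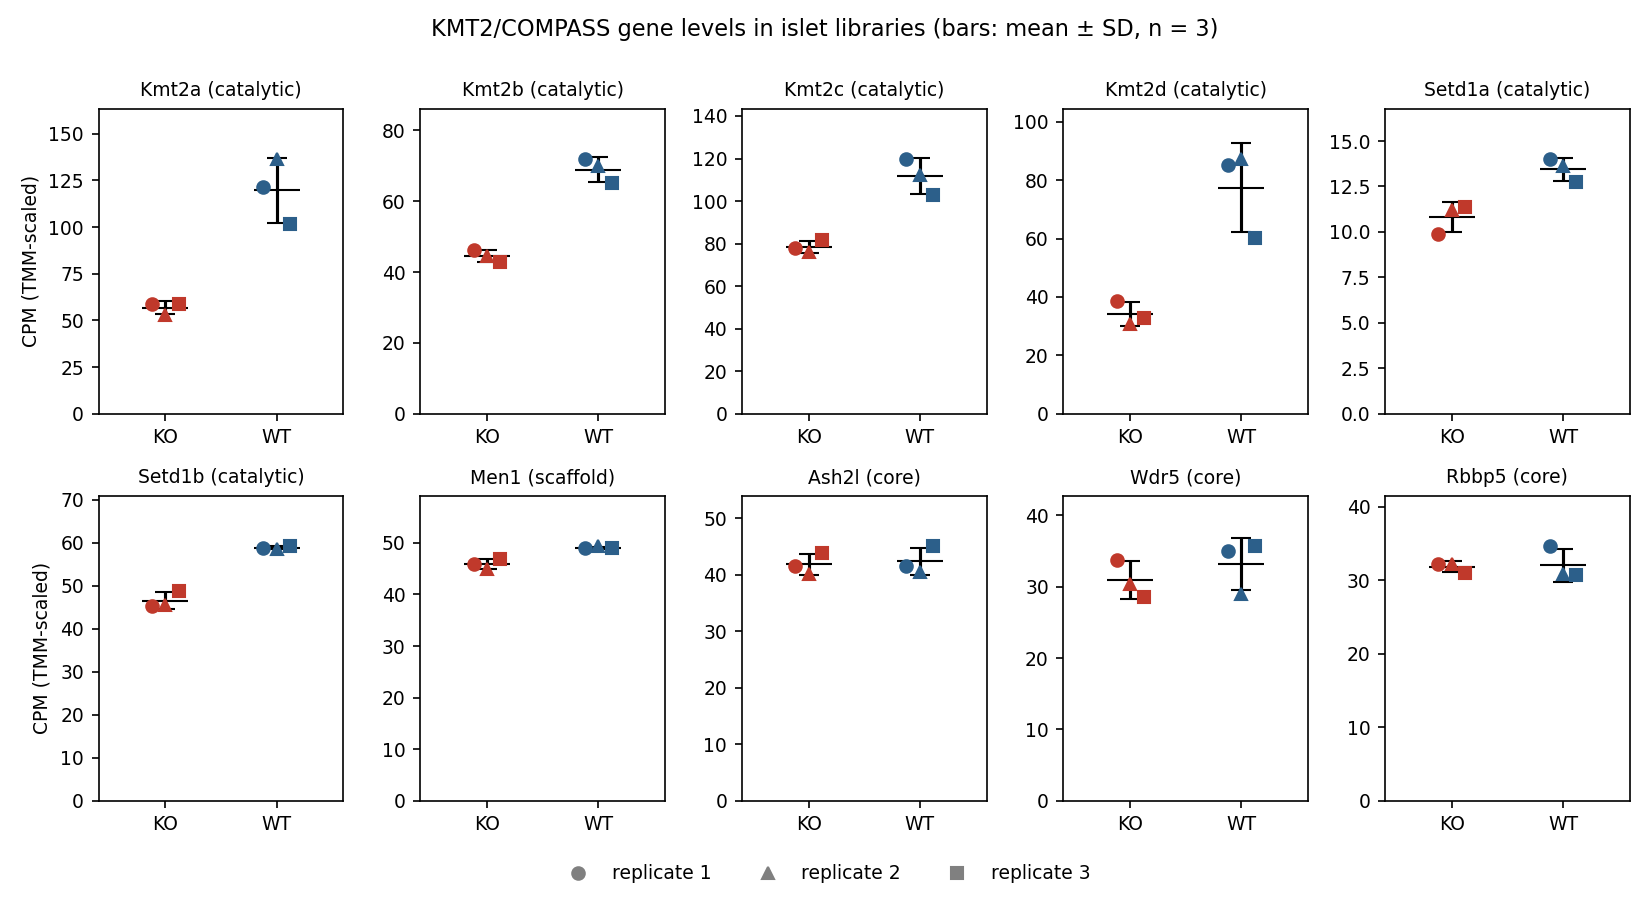
Level of each gene in CPM (TMM-scaled, axes from 0) in the KO and WT libraries; symbols mark replicates 1 to 3, and black bars give the mean ± SD (n = 3). All KO points of the 6 catalytic genes lie below all WT points, from Kmt2a (53.0 to 58.9 CPM in KO, 102 to 136 CPM in WT) to Setd1a, while those of Ash2l, Wdr5 and Rbbp5 overlap.

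In the edgeR quasi-likelihood fit over all 15915 tested genes, 2 of the 10 members, Kmt2a and Kmt2b, passed a Benjamini-Hochberg adjusted p of 0.05 as lower in KO, and 0 as higher; 0.170% of all tested genes were called lower and 0 higher. With no adjustment, 6 members, the catalytic genes, had a p below 0.05 as lower in KO and 0 as higher, where 9.38% of all genes were lower and 6.99% higher. For 7 of the 10 members every KO library lay below every WT library, which held for 12.1% of all tested genes. Since the members were chosen on this contrast, nothing is read from these counts. The calls changed with the method and with the libraries kept. DESeq2 called 5 members lower (the 4 KMT2 genes and Setd1b, with 2.75% of all genes called lower and 1.31% higher), and limma-voom called 0. DESeq2 gave no adjusted p for 5256 of the 15915 genes, which could not be called but count in its shares here and below. In edgeR, leaving out WT replicate 3 gave 4 called members (the 4 KMT2 genes, with 0.492% of all genes called lower). Leaving out any other library gave 0, although the log2 fold change of Kmt2a stayed between -1.17 and -0.97 and that of Kmt2d between -1.32 and -1.09 over all 6 omissions.

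Promoters are shown for the 2 catalytic genes with the largest differences and for 2 core genes that overlapped, to set their base composition side by side. RefSeq promoter windows (GRCm38.p6) matched 7 of the 10 members, the others being Kmt2b, Setd1b and Ash2l. The 250 bases before the annotated start are given 5′ to 3′ on the gene's strand for Kmt2a (chr9:44881290-44881539, minus strand), Kmt2d (chr15:98871206-98871455, minus strand), Wdr5 (chr2:27514897-27515146, plus strand) and Rbbp5 (chr1:132477117-132477366, plus strand). Capitals mark the GC box GGGCGG, the core of the site bound by SP1, on either strand.
Kmt2a: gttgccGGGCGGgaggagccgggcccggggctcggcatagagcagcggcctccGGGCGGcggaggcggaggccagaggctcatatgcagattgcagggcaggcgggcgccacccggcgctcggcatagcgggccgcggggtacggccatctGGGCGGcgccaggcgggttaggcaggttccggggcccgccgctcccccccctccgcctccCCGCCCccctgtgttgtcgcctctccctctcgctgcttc
Kmt2d: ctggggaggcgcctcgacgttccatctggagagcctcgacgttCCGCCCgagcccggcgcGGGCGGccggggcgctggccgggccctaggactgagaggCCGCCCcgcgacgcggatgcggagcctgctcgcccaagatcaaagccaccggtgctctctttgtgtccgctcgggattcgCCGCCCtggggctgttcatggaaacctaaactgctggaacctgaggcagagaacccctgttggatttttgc
Wdr5: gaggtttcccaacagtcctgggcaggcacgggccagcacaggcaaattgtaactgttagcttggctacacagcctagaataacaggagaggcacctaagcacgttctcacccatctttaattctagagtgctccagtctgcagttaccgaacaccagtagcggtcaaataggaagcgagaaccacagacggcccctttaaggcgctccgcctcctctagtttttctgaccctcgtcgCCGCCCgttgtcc
Rbbp5: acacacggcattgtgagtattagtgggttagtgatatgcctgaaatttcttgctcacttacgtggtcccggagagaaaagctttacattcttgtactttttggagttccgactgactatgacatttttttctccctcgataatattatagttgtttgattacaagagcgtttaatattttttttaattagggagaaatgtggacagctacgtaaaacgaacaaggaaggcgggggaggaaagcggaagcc

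The Kmt2a window had a GC content of 76.8% with 29 CpG sites, and the Kmt2d window 67.6% with 26. Wdr5 had 54.4% with 12 and Rbbp5 40.0% with 10, beside medians of 52.0% and 6 over 27025 RefSeq genes. The GC box occurred 4 times in Kmt2a and 4 in Kmt2d, 1 time in Wdr5 and 0 in Rbbp5, and 32.9% of all windows held at least 1. Over the 7 matched windows, neither GC content nor the number of GC boxes followed the order of the fold changes. Kmt2d, whose log2 fold change was larger than that of Kmt2a, had the lower GC content. Kmt2c had 12 GC boxes at 91.6% GC, Setd1a had 0 at 70.4%, and Men1, in the first of its 3 windows, had 1 at 52.0%. Both strands were searched, and overlapping boxes were counted each. CCAAT occurred 1 time in Men1 and in no other matched member, with 34.5% of all windows holding it. None of the 7 windows held TATAAA (13.0% of all windows), the ETS motif CCGGAAGT (2.93%), the CREB element TGACGTCA (1.62%), the E2F motif TTTCGCGC (0.255%), the long YY1 motif (0.218%), the NRF1 palindrome (0.781%) or GCGCAT, which lies within that palindrome (5.77%). These are letters in a window and say nothing of whether a factor was bound.

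The balance of catalytic to core transcripts can be read within each library, where no scaling between libraries enters. Per count of the 3 core genes together, the 6 catalytic genes had 2.57, 2.53 and 2.67 counts in KO replicates 1 to 3, against 4.23, 4.77 and 3.61 in WT replicates 1 to 3. The KO libraries lay close together and all under the WT libraries, at 2.59 ± 0.0705 in KO and 4.20 ± 0.581 in WT (SD, n = 3 each). Kmt2a alone had 1.74, 1.74 and 2.05 counts per Wdr5 count in KO, against 3.46, 4.70 and 2.85 in WT. Men1 kept nearly the same ratio to the core genes, at 0.439 ± 0.0135 in KO and 0.458 ± 0.0300 in WT, with overlapping libraries. As a share of all raw counts, the 3 core genes together took 0.0100 to 0.0104% in KO and 0.0104 to 0.0117% in WT, with every KO library just under every WT library, so on raw totals their sum did not overlap. On the log2 scale the mean fold change of the catalytic genes was -0.68 and that of the core genes -0.04, a difference of -0.63.

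**Figure D2:**
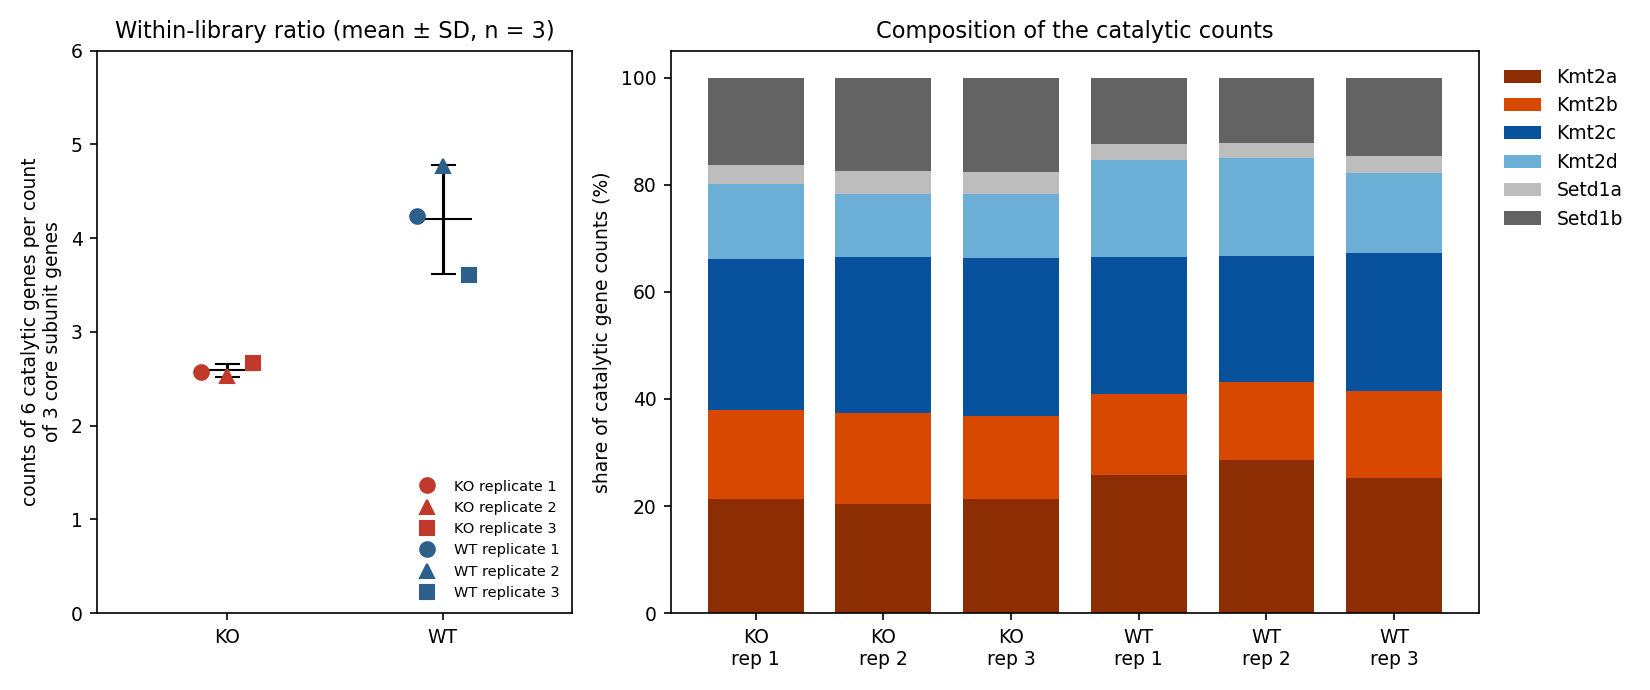
Left: raw counts of the 6 catalytic genes per raw count of the 3 core subunit genes in each library (points, mean ± SD, n = 3, axis from 0), 2.53 to 2.67 in KO and 3.61 to 4.77 in WT. Right: each catalytic gene's share (%) of the summed catalytic counts in each library, where Kmt2a and Kmt2d take a smaller part in KO than in WT and Kmt2c and Setd1b a larger one.

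The make-up of the catalytic counts also differed between genotypes. Kmt2a made up 20.3 to 21.3% of the catalytic counts in KO libraries and 25.3 to 28.5% in WT libraries, and Kmt2d 11.8 to 14.0% in KO and 14.9 to 18.2% in WT. Kmt2c took the larger part in KO, at 28.1 to 29.6%, against 23.5 to 25.6% in WT, and so did Setd1b, at 16.4 to 17.7% in KO and 12.2 to 14.7% in WT. Setd1a took 3.56 to 4.29% in KO and 2.85 to 3.18% in WT, also apart. The share of Kmt2b overlapped, at 15.5 to 17.0% in KO and 14.6 to 16.2% in WT. Within the paralogous pairs, Kmt2a had 1.28 ± 0.0888 counts per Kmt2b count in KO and 1.73 ± 0.196 in WT, and Kmt2d had 0.436 ± 0.0543 per Kmt2c count in KO and 0.690 ± 0.0980 in WT (SD, n = 3 each), neither pair overlapping between genotypes. Setd1b had 4.32 ± 0.263 counts per Setd1a count in KO and 4.38 ± 0.230 in WT, with overlap.

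Libraries of one genotype differed among themselves more for some members than for others. The coefficient of variation of Kmt2d was 12.0% in KO and 19.6% in WT, and that of Kmt2a 5.87% in KO and 14.5% in WT. WT replicate 3 was the lowest WT library for 5 of the 6 catalytic genes, Setd1b being the exception, and it remained above every KO library for all 6. Men1 varied least, at 2.19% in KO and 0.392% in WT. KO replicate 1, which shared its sex-linked transcripts with the WT libraries, lay below every WT library for all 6 catalytic genes. Among the KO libraries it was the highest for Kmt2d and the lowest for Setd1a. Set alone against the WT libraries, it gave log2 fold changes of -1.02 for Kmt2a, -0.58 for Kmt2b, -0.52 for Kmt2c and -1.0 for Kmt2d. Those of Setd1a and Setd1b were -0.45 and -0.38. These values rest on 1 KO library.

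Levels of different genes were compared per kilobase of exon in the mm9 annotation. For Setd1a that length includes 3523 bp shared with Hsd3b7, so its place in both orders is uncertain. In KO the order was Men1 (13.3 ± 0.290 CPM per kb), Rbbp5 (8.77 ± 0.199), Wdr5 (8.60 ± 0.735), Ash2l (8.01 ± 0.355), Kmt2b (4.63 ± 0.175), Setd1b (4.28 ± 0.187), Kmt2c (3.86 ± 0.148), Kmt2a (3.41 ± 0.200), Kmt2d (1.72 ± 0.207) and Setd1a (1.59 ± 0.121; SD, n = 3). Neighbouring libraries overlapped between Rbbp5 and Wdr5, Wdr5 and Ash2l, Kmt2b and Setd1b, and Kmt2d and Setd1a. In WT, Men1 was again highest at 14.2 ± 0.0557, followed by Wdr5 (9.24 ± 1.02), Rbbp5 (8.82 ± 0.615), Ash2l (8.10 ± 0.456), Kmt2b (7.19 ± 0.365), Kmt2a (7.18 ± 1.04), Kmt2c (5.50 ± 0.411), Setd1b (5.41 ± 0.0326), Kmt2d (3.91 ± 0.765) and Setd1a (1.98 ± 0.0935). There the neighbours that overlapped were Wdr5 and Rbbp5, Rbbp5 and Ash2l, Kmt2b and Kmt2a, and Kmt2c and Setd1b. Core subunit transcripts thus had higher mean levels per length than any catalytic transcript in both genotypes, although in WT the libraries of Kmt2a overlapped with those of Ash2l and of Wdr5, and Kmt2a moved to a place behind Setd1b and Kmt2c in KO.

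**Figure D3:**
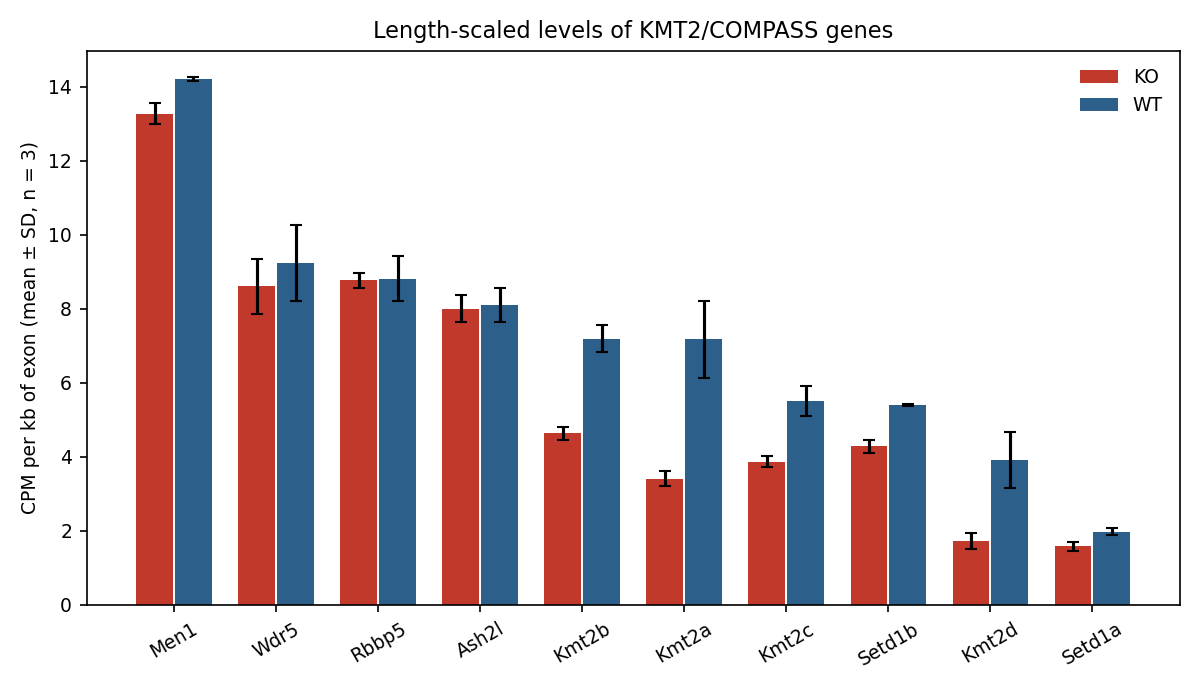
Mean level per kilobase of exon (CPM per kb, axis from 0, bars ± SD, n = 3) in KO and WT, ordered by the WT level. Men1 is highest in both genotypes (13.3 in KO, 14.2 in WT), the core genes follow, and Setd1a is lowest. The place of Setd1a is uncertain, since 3523 bp of its exons are shared with Hsd3b7.

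The catalytic and core genes also differ in transcript length, and length went with the fold change across all genes. The catalytic genes have 6795 to 20296 bp of exon, and the core genes 3596 to 5231 bp. Across 14787 tested genes with an annotation, Spearman's rho between the log2 fold change and exonic length was -0.23, and with exonic GC content -0.18, given as descriptions over genes that share libraries. The median log2 fold change was 0.11 in the decile of genes with the shortest exons and -0.12 in the decile with the longest. In that longest decile the median deviation of a library from the gene mean was -0.09, -0.06 and -0.02 (log2) in KO replicates 1 to 3 and 0.09, 0.08 and 0.05 in WT replicates 1 to 3.

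Kmt2a, Kmt2b, Kmt2c, Kmt2d and Setd1b fall in the longest decile, where 1.28%, 7.51%, 12.2%, 1.08% and 23.5% of genes had a log2 fold change as low or lower, in that order. Setd1a falls in the next decile, where 19.7% did. For the core genes the share was 35.1% (Wdr5), 49.6% (Rbbp5) and 54.7% (Ash2l) of their own deciles. Among the catalytic genes, Kmt2c, the longest, had a smaller difference than Kmt2a, Kmt2b and Kmt2d, while Setd1a, the shortest, had the smallest difference. Among the 2259 other tested genes at least as long as Setd1a, the median log2 fold change was -0.11, and in 25.3% every KO library lay below every WT library. With offsets for length and GC content fitted per library, the log2 fold changes were -0.77 for Kmt2a, -0.36 for Kmt2b, -0.23 for Kmt2c, -0.73 for Kmt2d, -0.11 for Setd1a and -0.04 for Setd1b, and 0 members passed. The difference between the catalytic and the core means was then -0.36. The part of length and GC content in the KO against WT values was not tested beyond this fit.

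**Figure D4:**
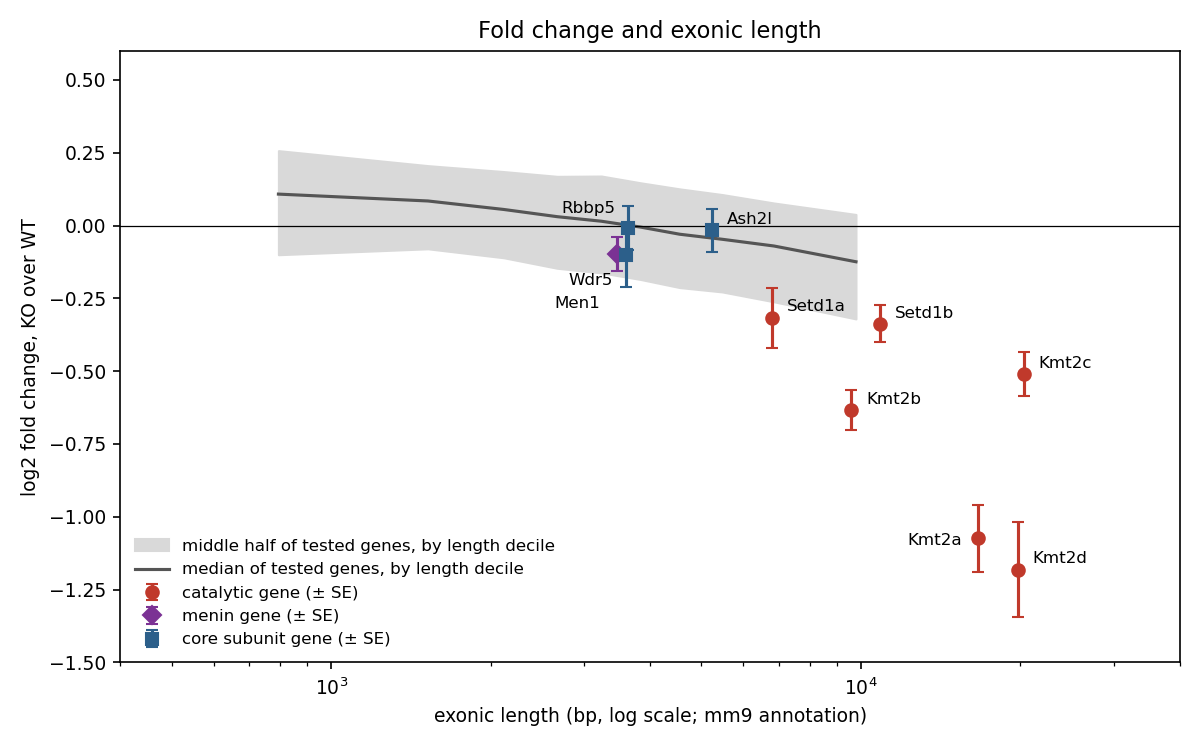
Log2 fold change, KO over WT (± SE), against exonic length (bp, log axis) for the 10 genes, over the median (line) and middle 50% (grey) of tested genes by length decile, each decile drawn at its median length. The median falls to -0.12 in the longest decile, and Kmt2a (-1.07) and Kmt2d (-1.18) lie far under it, while Ash2l, Wdr5 and Rbbp5 lie within the grey area.

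The other parts of the H3K4 methylation system were followed by lists. Of 11 accessory subunits of the complexes, 10 were tested, and 0 were called in either direction (edgeR, adjusted p below 0.05). Their median log2 fold change was -0.17, beside 0.00226 for all tested genes, and it was -0.08 with the length and GC offsets. At an unadjusted p of 0.05, 4 of the 10 passed as lower and 0 as higher, beside 9.38% and 6.99% of all tested genes. DESeq2 called 2, Ncoa6 and Bod1l, lower and 0 higher, beside 2.75% and 1.31% of all genes. Dpy30, the smallest core subunit, was at 23.7 ± 1.69 CPM in KO and 20.8 ± 1.05 CPM in WT (log2 fold change 0.19, SE 0.09, adjusted p = 0.347 in edgeR), with every KO library above every WT library, as in 11.3% of all genes. Of the SETD1 partners, Cxxc1, which binds unmethylated CpG, was at -0.19 (SE 0.08, adjusted p = 0.311 in edgeR) and Wdr82, which ties the complex to RNA polymerase II, at -0.15 (SE 0.07, adjusted p = 0.352). Among genes named after their values were seen, Ncoa6, a coactivator in the KMT2C and KMT2D complexes, was at 52.8 ± 7.30 CPM in KO and 74.7 ± 3.51 CPM in WT (-0.50, SE 0.11, adjusted p = 0.135 in edgeR). Bod1l, reported with SETD1A, was at 40.1 ± 5.17 CPM in KO and 63.7 ± 2.53 CPM in WT (-0.67, SE 0.10, adjusted p = 0.0840 in edgeR). Pagr1a had 0 or 1 count in each library and was not tested.

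Kdm6a, the X-linked H3K27 demethylase of the KMT2C and KMT2D complexes, differed among the KO libraries. It had 1056, 1951 and 1981 counts in KO replicates 1 to 3 and 1209 to 1224 in WT, so the KO libraries with Xist were high and KO replicate 1 was not. Of the 6 H3K4 demethylase genes, all tested, edgeR called 0 in either direction, with 0 at an unadjusted p below 0.05, and DESeq2 called 0. The Y-linked Kdm5d had 504, 2 and 2 counts in KO and 532 to 684 in WT. Without KO replicate 1, the library that holds Y-linked transcripts, Kdm5d was the 1 demethylase called lower. Kdm1a (LSD1) was at -0.12 (SE 0.09), Kdm1b at -0.07 (SE 0.10) and Kdm5a at 0.00331 (SE 0.09), with adjusted p of 0.550, 0.773 and 0.992 in edgeR.

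Among 12 genes for readers of tri-methylated H3K4, 11 were tested and edgeR called 0 in either direction, though 3 passed an unadjusted p of 0.05 as lower (9.38% of all genes did) and 0 as higher (6.99%). DESeq2 called 3 lower, namely Bptf, Chd1 and Phf2, where it called 2.75% of all genes lower. The median log2 fold change was -0.11, but it was 0.0049 without WT replicate 3, -0.06 without WT replicate 1, -0.19 without WT replicate 2 and -0.01 with the length and GC offsets, so its direction rested on single libraries. Bptf, of the NURF remodelling complex, was at 93.0 ± 10.01 CPM in KO and 136.9 ± 4.68 CPM in WT (-0.56, SE 0.09, adjusted p = 0.0840 in edgeR), and Chd1, a chromodomain remodeller, at 43.6 ± 3.57 CPM in KO and 56.2 ± 3.50 CPM in WT (-0.37, SE 0.09, adjusted p = 0.153 in edgeR). Taf3, the TFIID subunit that binds the mark, was at -0.06 (SE 0.11, adjusted p = 0.834 in edgeR). Ing4 had 1 to 8 counts per library and was not tested.

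Genes reported as targets of menin or KMT2A in other studies showed no called difference. Of 13, 9 were tested, edgeR called 0 either way, 1 was lower at an unadjusted p below 0.05 (9.38% of all genes were), and DESeq2 called 0. The median was -0.02 and had no stable direction, at -0.17 without WT replicate 3, -0.16 with KO replicate 1 alone, 0.0022 without WT replicate 1, 0.03 with the length and GC offsets and 0.08 with no low-count filter. The cell cycle inhibitor genes Cdkn1b and Cdkn2c, menin targets in islets, were at 0.07 (SE 0.09, adjusted p = 0.743 in edgeR) and -0.02 (SE 0.19, adjusted p = 0.974 in edgeR). Cdkn1b had 95.4 ± 5.27 CPM in KO and 90.9 ± 9.13 CPM in WT. Igf2bp2, an RNA-binding protein gene, had 4.77 ± 0.958 CPM in KO and 7.49 ± 0.826 CPM in WT (-0.65, SE 0.19, adjusted p = 0.193 in edgeR). The HOXA genes Hoxa4, Hoxa7, Hoxa9 and Hoxa10, classical KMT2A targets in blood cells, had 0 to 7 counts per library and were not tested.

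Genes most like the catalytic profile were found as the smallest root mean square difference of centred log2 CPM over the 6 libraries, among 9987 genes averaging at least 5 CPM. The 6 nearest were Eif2ak4, an eIF2 kinase gene (0.0425), Tia1, an RNA-binding protein gene (0.0547), Plekha6 (0.0559), the chromodomain remodeller gene Chd2 (0.0585), the splicing factor gene Rbm5 (0.0613) and Spen, a large transcriptional corepressor gene (0.0621), where the median gene lay at 0.380. Picked by likeness over these same libraries, they were bound to have similar log2 fold changes, from -0.72 in Spen to -0.62 in Eif2ak4. Among the members, Kmt2b lay nearest to that mean profile (0.0539). Kmt2d lay farthest of the catalytic genes (0.282), which themselves make up the profile. The 6 genes nearest to the core profile were Lsg1, Fam207a, Napa, Erbin, Rbm15b and Poldip2, at 0.0177 to 0.0308, with a median gene at 0.155, and Men1 lay at 0.0691 from it.

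**Figure D5:**
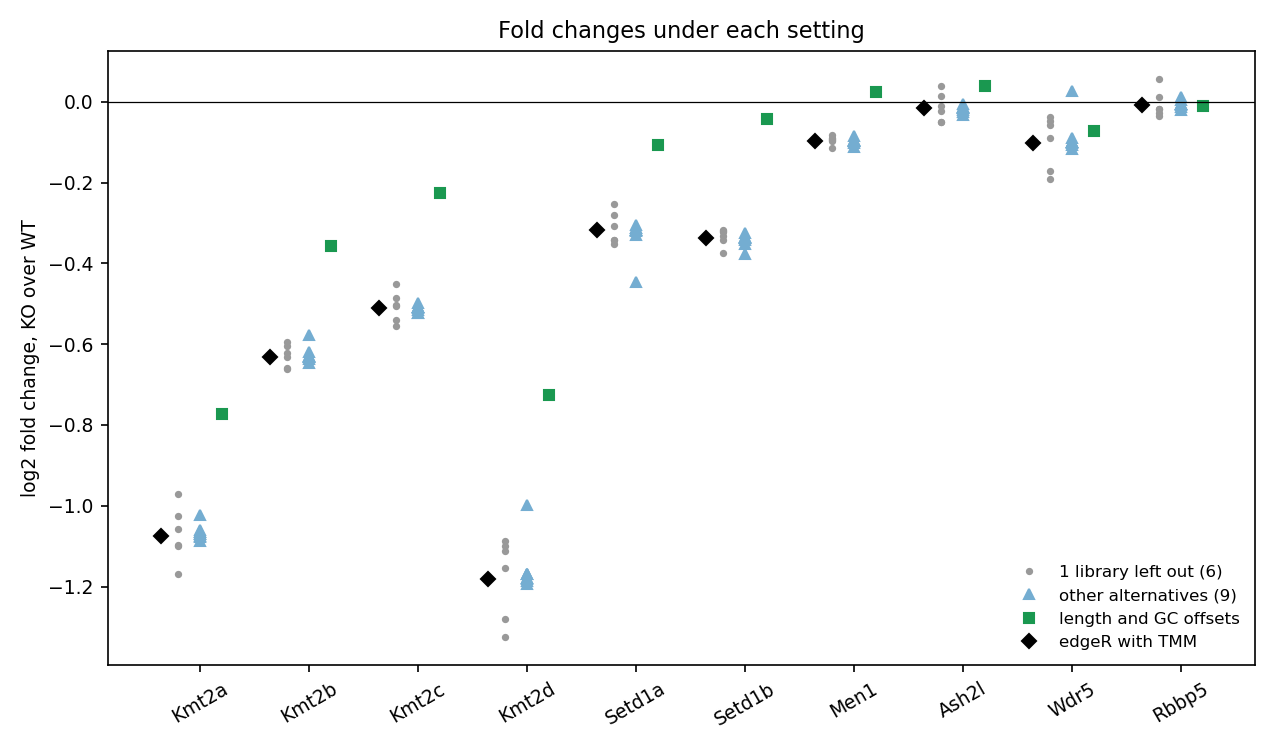
Log2 fold change, KO over WT, of each gene in the edgeR fit (diamonds), with 1 library left out (grey), under 9 other alternatives (triangles) and with length and GC offsets (squares). The catalytic genes stay below 0 throughout, with the offset values nearest to 0, such as -0.77 for Kmt2a, while Ash2l, Wdr5, Rbbp5 and Men1 lie on both sides of 0.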

How the data were processed

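RNA from isolated islets was sequenced in 3 Paupar KO and 3 WT libraries, made with a TruSeq RNA kit from total RNA per the labels' protocols. HISAT2 2.1.0, HTSeq, CASAVA 1.8.2, DESeq2 and the mm9 build appear in the submitters' processing notes. Neither the annotation nor the strand setting is given in the sources used here, so antisense and overlapping genes may share reads. The deposited table holds raw read counts for 53670 genes, with no normalization by the authors. Columns were matched to samples by name, with 0 left over.

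Counts were fitted in R 4.3.3 with edgeR 4.0.16: filterByExpr left 15915 genes, libraries were scaled by TMM, and genotype was tested by the quasi-likelihood F-test with Benjamini-Hochberg adjustment at 0.05. Log2 fold changes set KO over WT. The script was tested on simulated data. The p-values reflect only how far these libraries spread. DESeq2 1.42.0 and limma 3.58.1 were alternatives, beside other scalings, filters, offsets and omissions of libraries. GENCODE vM1 (mm9) supplied exonic length and GC content for 92.9% of tested genes, matched by symbol or by a synonym on the same chromosome. That annotation lists the 4 KMT2 genes under older symbols. Date-like entries stand for 24 gene names and are not used here. Members, lists and rules were chosen with earlier results of these data known. All 10 members are named. Each list names its first 3 tested members, since none was called, and other names were chosen after their values were seen. For both profiles the 6 nearest genes are named, predicted and sex-linked genes left out. Figures used Python 3.11.15 and matplotlib 3.10.9.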

Additional observations from a re-analysis of the deposited data

How the results depend on the processing

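The number of members called lower in KO (2) was 5 in DESeq2, 4 at an adjusted p below 0.1, 0 in limma-voom, 0 with the length and GC offsets, 0 with KO replicate 1 alone against WT, and 0 to 4 when 1 library was left out. Over all genes, 27 were called lower and 0 higher, against 437 lower and 209 higher in DESeq2, 125 and 7 at an adjusted p below 0.1, 0 and 0 in limma-voom, 1 and 0 with the offsets, 0 and 1 with KO replicate 1 alone, and 0 to 80 lower and 0 to 9 higher when 1 library was left out. With the replicate number as a block, 0 genes and 0 members were called. Same-numbered libraries' deviations correlated at 0.183, 0.0576 and 0.0320 for replicates 1 to 3, and those of differently numbered libraries at -0.1129 to 0.0585. The pair of replicates 1 was thus the highest. Whether same-numbered libraries shared a preparation was not tested. The catalytic minus core difference (-0.63) was -0.36 with the offsets and -0.72 to -0.55 when 1 library was left out. The cause of these changes was not tested.

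The 6 catalytic genes were lower in KO under every alternative run, while small values near 0 changed sign. Men1 was at 0.0236 with the offsets and Ash2l at 0.0399. Wdr5 was at 0.0255 and Rbbp5 at 0.0104 with KO replicate 1 alone, and Rbbp5 was at 0.0037 with no low-count filter. When 1 library was left out, Ash2l ran from -0.0507 to 0.04 and Rbbp5 from -0.0364 to 0.057. The plot of settings shows these ranges.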
